A study of Mus musculus with 8 samples.

Results

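The miR-30 family comprised 6 of the 1181 miRNA precursors listed in small RNA libraries of myoblasts, the muscle precursor cells that divide and fuse into fibres. The members were chosen by name: mmu-mir-30a, mmu-mir-30b, mmu-mir-30c-1, mmu-mir-30c-2, mmu-mir-30d and mmu-mir-30e, written below without the mouse prefix mmu. The libraries came from 4 old and 4 young C57BL/6J mice, 1 library per numbered mouse, and all groups share this strain, cell type and small RNA fraction. The labels give age only as old or young and name no treatment. Animals are called old 1 to old 4 and young 1 to young 4, after their numbers in the labels. The series title raises the question of how miRNAs of old and young muscle cells differ. All 6 members were among the 359 precursors compared, which reached a linear value of 10 in 4 or more libraries, and no member was at 0 in any library.

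miRNAs guide Argonaute proteins to messenger RNAs, mainly through the seed, bases 2 to 8 of the mature strand, and lower the output of the messages they pair with. The miR-30 5p strands share one seed and therefore overlap widely in the messages they can pair with. Family members have been described as rising when mouse myoblasts differentiate, with messages of the repressor Snai1, which holds back differentiation genes, and of the silencing factor Tnrc6a among their targets. In heart, miR-30 has been described as limiting connective tissue growth factor.

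The mature strands below are shown because the shared seed defines the family and the bases after it separate the members. They are RefSeq sequences of the GRCm38.p6 table, 5′ to 3′, with the letters GUAAACA in capitals. Of the 6 members, mir-30a, mir-30c-1, mir-30c-2 and mir-30e were matched in that table, together with mir-30f and mir-384.
miR-30a-5p: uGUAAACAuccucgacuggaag
miR-30c-5p: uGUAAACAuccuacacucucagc
miR-30e-5p: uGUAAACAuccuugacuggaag
miR-384-5p: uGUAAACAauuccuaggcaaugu
miR-30f: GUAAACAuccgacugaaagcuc

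Counted from 1 at the 5′ end, the 5p strands of miR-30a and miR-30e were identical at 21 of 22 bases and differed by C13U. The 5p strands of miR-30a and miR-30c shared their first 12 bases and differed at 5 of the 22 positions compared, the first being C13A. The mature miR-30c-5p of mir-30c-1 and of mir-30c-2 is 1 and the same strand, so a read of it cannot be assigned to either copy. How such reads were divided is not stated in the sources used here. GUAAACA stood at bases 2 to 8 in 4 of the 1679 distinct mature miRNAs of the table (0.238%, mature strand searched as written). These were the 5p strands of miR-30a, miR-30c, miR-30e and miR-384. mir-30b and mir-30d had no match in that table, so their strands were not searched and the count leaves them out. mir-384, the one precursor outside the family with that seed, was listed at 0 in all 8 libraries. In miR-30f the same letters stood at bases 1 to 7, 1 base earlier.

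The 6 precursors lie in 3 pairs of neighbours (GRCm38, the same build as mm10). mir-30a (chromosome 1, 23272269 to 23272339, plus strand) overlaps no other annotated gene, and mir-30c-2 lies 19361 bases further on (23291701 to 23291784, plus strand) in an exon of the lincRNA Gm27028. mir-30e (chromosome 4, 120772606 to 120772697, minus strand) and mir-30c-1 (120769534 to 120769622, minus strand) lie 2983 bases apart in introns of Nfyc, which encodes a subunit of the CCAAT-binding factor NF-Y. mir-30d (chromosome 15, 68341208 to 68341289, minus strand) overlaps exons of the lincRNA Gm20732 and of Gm37296. mir-30b (68337415 to 68337510, minus strand), 3697 bases from mir-30d, overlaps an exon of Gm26621.

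mir-30f, listed separately by the authors, covers the same bases as mir-30e on the opposite strand. Its deposited value equalled that of mir-30e in 8 of 8 libraries, with a difference of 0.0 throughout. The same reads were therefore in effect listed under both names, and the strand they came from cannot be read from this file. mir-30f was left out of every count of members.

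The family spanned a wide range of levels, with mir-30d and mir-30a far above the other 4. On the deposited log2 scale, whose steps behave like reads divided by precursor length and by library size, mmu-mir-30d measured 15.32, 16.01, 15.86 and 16.28 in old 1 to old 4, against 15.03, 16.48, 15.85 and 17.11 in young 1 to young 4. Its mean level ranked 17 among the 359. mmu-mir-30a measured 14.81, 14.81, 15.15 and 15.85 in the old libraries, against 14.83, 15.36, 14.45 and 16.39 in the young ones. For both precursors young 4 was the highest library and old 4 the highest of its group, and the groups overlapped.

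The Nfyc and chromosome 1 partners lay several log2 units lower. mmu-mir-30e measured 10.40, 10.80, 10.86 and 11.65 in old 1 to old 4, against 10.79, 11.07, 10.25 and 11.96 in young 1 to young 4. mir-30c-2 measured 10.10, 10.16, 10.50 and 11.28 in the old libraries, against 10.40, 10.68, 9.88 and 11.79 in the young ones. mir-30c-1 measured 9.39, 9.81, 9.98 and 10.82 in the old libraries, against 9.99, 10.14, 9.38 and 11.26 in the young ones. In these 3 precursors too, old 4 and young 4 stood highest in their groups, while young 3 was the lowest library.

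The least abundant member was mir-30b, whose mean level ranked 158 among the 359 compared precursors. mmu-mir-30b measured 7.79, 7.71, 8.28 and 8.95 in old 1 to old 4, against 8.09, 7.98, 7.94 and 8.93 in young 1 to young 4. Old 4 and young 4 were again the highest of their groups, here with old 4 at the top, and the groups overlapped. The means of mir-30d and mir-30a exceeded those of 95.3% and 93.9% of the 359 compared precursors, and that of mir-30b exceeded 56.0%.

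**Figure D1:**
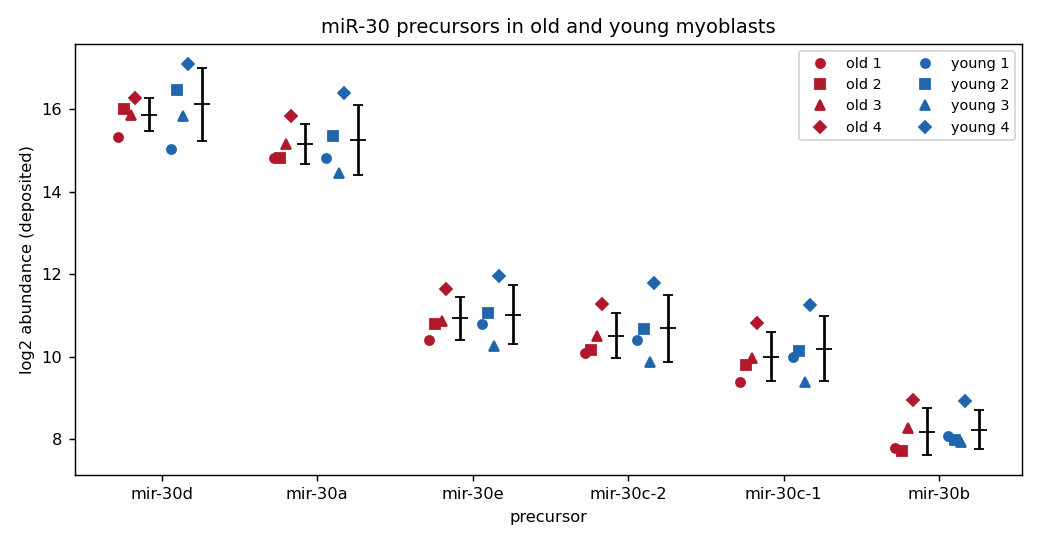
Deposited log2 abundance of the 6 miR-30 precursors, ordered by mean level, in 4 old (red) and 4 young (blue) libraries; markers give the animal's number and black bars the mean ± SD (n = 4 each). mir-30d and mir-30a lie between 14.45 and 17.11, the other 4 between 7.71 and 11.96, and old and young points overlap for each.

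The order of the levels was mir-30d, mir-30a, mir-30e, mir-30c-2, mir-30c-1 and mir-30b, and it was the same in 8 of 8 libraries for each of the 15 pairs. Each pair differed by more than its spread between libraries (two-sided exact sign-flip permutation test, p = 0.00781 for each, the smallest that 8 libraries can give, and 0.00781 after Benjamini-Hochberg adjustment over the 15). The test covers the spread between libraries only, and the order is that of the listed precursors. It depends on how reads of the shared miR-30c-5p were divided. In old 3 the linear values were 1010 for mir-30c-1, 1448 for mir-30c-2 and 1859 for mir-30e. Added up, the 2 copies would stand above mir-30e if each read was listed only once. Whether shared reads were listed under both copies is not known, so their joint level cannot be placed. The closest neighbours were mir-30e and mir-30c-2, whose log2 levels differed by 0.37 ± 0.13 within a library (SD, n = 8), and mir-30c-2 and mir-30c-1, which differed by 0.50 ± 0.11. The step from mir-30a to mir-30e was the widest between neighbours, at 4.23 ± 0.15. mir-30d exceeded mir-30a by 0.79 ± 0.42, from 0.20 in young 1 to 1.40 in young 3.

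Summed on the linear scale, mir-30d and mir-30a made up 94.5% to 95.9% of the family in old libraries and 93.4% to 96.4% in young ones. mir-30d alone held 59.1 ± 5.55% of the family sum in old libraries, against 61.3 ± 8.71% in young ones, and mir-30a held 36.2 ± 5.07% and 34.1 ± 7.40% (SD, n = 4 each). mir-30b held 0.290 ± 0.0544% in old libraries, against 0.271 ± 0.102% in young ones. The split between the leading members varied more among young animals, with mir-30d from 49.9% in young 1 to 69.9% in young 3. If the values are scaled reads per kilobase, the reads behind a member ran from 523 for mir-30b in its lowest library to 457198 for mir-30d in its highest. Counting alone would then give a log2 SD of 0.063 for mir-30b at its lowest and of 0.0050 for mir-30d, far below the spread between libraries; this covers counting error only.

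No member differed between old and young myoblasts by more than the spread between libraries. mir-30d averaged 15.87 ± 0.40 in old libraries, against 16.12 ± 0.89 in young ones (SD, n = 4 each). Its log2 difference, old minus young, was -0.25 (SE 0.45), with a 95% interval of -1.25 to 0.75 (limma, adjusted p = 0.995 over 359 precursors; two-sided exact permutation p = 0.686). On the linear scale that interval runs from 0.419 to 1.69 times the young level.

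mir-30a averaged 15.15 ± 0.49 in old libraries, against 15.26 ± 0.84 in young ones, a log2 difference of -0.10 (interval -1.11 to 0.90; exact permutation p = 0.829). mir-30e averaged 10.93 ± 0.52 and 11.02 ± 0.71, a difference of -0.09 (interval -1.06 to 0.88; exact permutation p = 0.829). mir-30b averaged 8.18 ± 0.57 and 8.23 ± 0.47, a difference of -0.05 (interval -0.99 to 0.88; exact permutation p = 0.886). Over all 359 precursors the signed differences had a median of -0.05 and ran from -2.582 to 1.715.

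The 2 copies of mir-30c had differences of the same size as each other. mir-30c-2 averaged 10.51 ± 0.54 in old libraries, against 10.69 ± 0.81 in young ones, a difference of -0.18 (interval -1.22 to 0.87; exact permutation p = 0.714). mir-30c-1 averaged 10 ± 0.60 in old libraries, against 10.19 ± 0.78 in young ones, a difference of -0.19 (interval -1.25 to 0.87; exact permutation p = 0.657). For all 6 members limma's adjusted p was 0.995.

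By limma, 0 of the 6 members and 0 of the 359 precursors passed an adjusted p of 0.05 (0.0%), and at an unadjusted p under 0.05 there were 0 members and 4 precursors (1.11%). The groups overlapped for all 6 members, as for all but 3 of the 359 (0.836% not overlapping). All 6 members had a lower mean in old libraries, as had 54.0% of the 359. The members are not separate measurements, since they share library and sequence. The median difference of the members was -0.14. Without young 4 all 6 differences were above 0, from 0.08 for mir-30d to 0.28 for mir-30a, and the adjusted p ran from 0.847 to 0.940. Without young 3 they were from -0.46 for mir-30c-1 to -0.15 for mir-30b, and without young 1 mir-30d was at -0.61. The sign of the family's difference thus rested on single libraries. The intervals reach about 2-fold either way, so changes of that size cannot be told from none here.

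**Figure D2:**
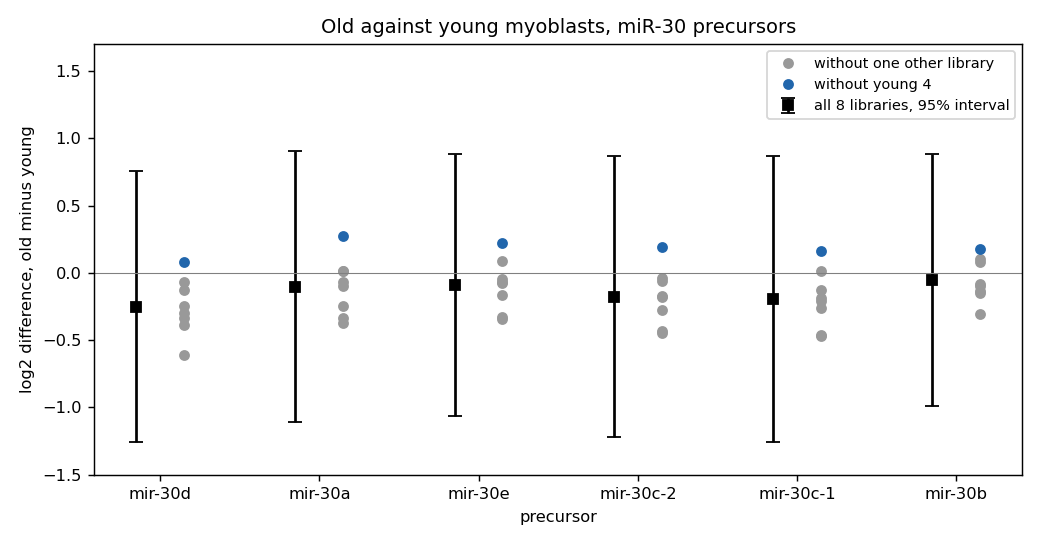
Log2 difference, old minus young, of each miR-30 precursor: black squares with 95% limma intervals for all 8 libraries, and circles for the fits without 1 library each (blue, without young 4). All intervals cross 0, from -1.25 at the lowest to 0.90 at the highest, and the blue circles lie above 0, between 0.08 and 0.28.

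The members varied by library, with old 4 and young 4 high for each member. Young 4 stood 1.06 above the members' own means over the 8 libraries (members from 0.72 to 1.19), and old 4 stood 0.63 above them (0.29 to 0.74). Old 1 stood at -0.54 (-0.71 to -0.40) and young 3 at -0.55 (-0.76 to -0.14). Young 4 was the highest or second highest library for every member, and old 4 ranked 1 to 3. The order broke mainly at mir-30d and mir-30b. Young 1 was the lowest library for mir-30d (-0.96), while the other 5 members lay between -0.38 and -0.11 there. Old 2 was the lowest library for mir-30b (-0.50) but stood at 0.02 for mir-30d. Young 2 stood at 0.49 for mir-30d and -0.23 for mir-30b, and young 3 at -0.14 for mir-30d and -0.76 for mir-30a.

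Other measures also varied between libraries, in part in this order. The median deviation of all 359 precursors was 0.58 in young 4 and 0.35 in old 4, against -0.28 in old 1, -0.18 in young 3 and -0.33 in young 1. After median-ratio rescaling, which removes such a common shift, the members' mean deviation was 0.50 in young 4 with 6 of 6 above their own mean, 0.28 in old 4 with 5 of 6, -0.25 in old 1 with 0 of 6 and -0.34 in young 3 with 1 of 6. In young 1 it was -0.32 as deposited and 0.025 after rescaling, with 4 of 6 then above their own mean. mir-3107, which repeats the reads of the muscle miRNA mir-486 and is the most abundant precursor, took 31.8% of the total linear value in old 4 and 40.7% in old 1. It held 19.1% in young 4, 39.1% in young 3 and 42.8% in young 1. The family sum took 1.20% in old 4 and 0.600% in old 1, against 2.47% in young 4, 0.662% in young 3 and 0.445% in young 1. Without mir-486 and mir-3107 the family's share was 2.61% and 1.94% in those old libraries and 3.65%, 1.98% and 1.64% in those young ones. Recovered library size was 25.1 to 28.0 M reads in old libraries, with old 4 the smallest, and 29.97 to 39.4 M reads in young ones, with young 4 the largest. Every young library was larger than every old one, so library size and age cannot be told apart here.

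Markers of other cells were checked as well. The 7 muscle precursors listed had a summed log2 level of 21.11 to 21.76 in old and 20.33 to 22.14 in young libraries, with young 4 the lowest of all. Nearly all of that sum was mir-486, which alone stood at 20.29 in young 4, against 20.33 for the sum. mir-206, a muscle-specific precursor, stood at 15.90 ± 0.17 in old libraries, against 15.72 ± 0.72 in young ones (SD, n = 4 each), with 14.78 in young 4. Its log2 difference, old minus young, was 0.18, against -0.235 for mir-133a-1 and -0.218 for mir-133a-2. Of the 5 muscle precursors compared, 2 had a higher and 3 a lower mean in old libraries, while mir-1a-1 and mir-1a-2 were too low to be compared. The 6 fibroblast and smooth muscle precursors, all of them compared, summed to 15.40 to 15.87 in old and 14.62 to 15.68 in young libraries. All 6 had a higher mean in old libraries, as had 165 of the 359, with a median log2 difference of 0.29 and 0 passing (limma, adjusted p = 0.995). All 6 miR-30 members had a lower mean there, but without young 4 all 6 had a higher one. Precursors of a list share the same libraries and are not separate measurements. The 2 endothelial precursors, mir-126a and mir-126b, summed to 4.41 to 5.51 in old and 4.13 to 6.28 in young libraries, with old 4 and young 4 the highest of their groups. Of 6 blood precursors, mir-223, mir-142, mir-142b and mir-144 were at 0 in all libraries, and the list summed to 3.05 to 4.47 in old and 1.97 to 4.32 in young libraries. The 6 epithelial precursors summed to 2.01 to 3.40 in old and 2.06 to 3.80 in young libraries, with mir-200a and mir-429 at 0 in all of them, and the 6 neural ones to 2.20 to 4.49 and 2.83 to 4.12. The part of cell make-up, the mir-486 share and library scaling in the members' order was not tested, and in such bulk libraries a change in the cells present and in the miRNA per cell cannot be told apart.

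**Figure D3:**
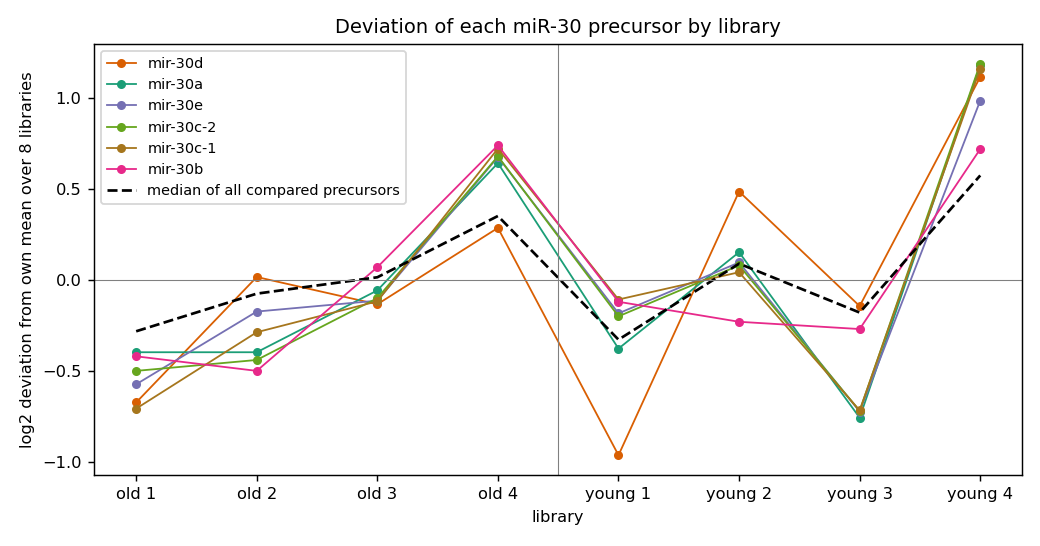
Log2 deviation of each miR-30 precursor from its own mean over the 8 libraries, old libraries on the left and young ones on the right; the dashed line is the median deviation of all 359 compared precursors. Within each age group 6 of 6 lines are highest at old 4 and young 4, above the dashed line except mir-30d at old 4, and mir-30d drops to -0.96 in young 1.

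Within that shared order the members fell into a close group of 4 and 2 that ran apart from it. This was measured as the SD over the 8 libraries of the log2 difference between both precursors of a pair within each library, which scaling a whole library by 1 factor does not change. The 6 pairs among mir-30a, mir-30c-1, mir-30c-2 and mir-30e had SDs of 0.088 to 0.171. The 4 pairs of mir-30b with these had 0.282 to 0.316, the 4 pairs of mir-30d with these had 0.417 to 0.470, and mir-30b with mir-30d had 0.531. Over all 64261 pairs of the 359 precursors the median SD was 0.971, and 0.181% of pairs lay under 0.171, while 18.2% lay under 0.531. The grouping was made after seeing these values and has no test.

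Neighbours on a chromosome were at both ends of this range. mir-30a exceeded mir-30c-2, its partner on chromosome 1, by 4.71, 4.65, 4.65 and 4.57 in old 1 to old 4, against 4.43, 4.68, 4.57 and 4.60 in young 1 to young 4, the closest of the 15 pairs. mir-30e exceeded its Nfyc partner mir-30c-1 by 1.01, 0.99, 0.88 and 0.83 in the old libraries, against 0.80, 0.93, 0.87 and 0.70 in the young ones. mir-30d exceeded mir-30b, its partner on chromosome 15, by 7.53, 8.30, 7.58 and 7.33 in the old libraries, against 6.94, 8.50, 7.91 and 8.18 in the young ones, the loosest of the 15. Young 1 and young 2 mark the ends of that last range, and both come from the same age group.

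These within-library differences did not separate old from young cells either. For mir-30a minus mir-30c-2 the mean was 4.65 ± 0.057 in old libraries, against 4.57 ± 0.10 in young ones (SD, n = 4 each; two-sided exact permutation p = 0.314, adjusted p = 0.471 over 3 pairs). For mir-30e minus mir-30c-1 it was 0.93 ± 0.087 and 0.83 ± 0.099 (exact permutation p = 0.171, adjusted p = 0.471). For mir-30d minus mir-30b it was 7.68 ± 0.42 and 7.88 ± 0.67 (exact permutation p = 0.657, adjusted p = 0.657).

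In each of the 8 leave-one-out sets the 6 pairs of the close group kept smaller SDs than the 9 other pairs, and mir-30d with mir-30b had the largest. Without both old 4 and young 4, the close group had SDs of 0.079 to 0.199, the other pairs at least 0.251, and mir-30d with mir-30b 0.568. mir-30c-2 exceeded mir-30c-1 by 0.35 to 0.71, where their lengths of 84 and 89 bases would give 0.083, so the copies were not listed with identical reads although they share miR-30c-5p. Within the close group, the 5p strands of mir-30a and mir-30e differ at 1 base, and those of mir-30a and mir-30c-2 at 5 positions. The part of reads that match more than 1 precursor in the closeness of the group was not tested.

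**Figure D4:**
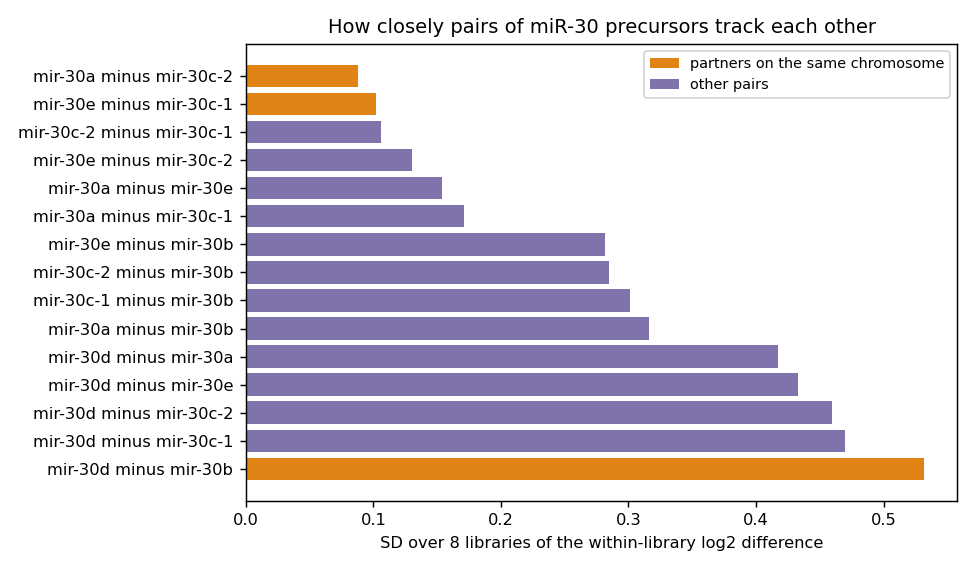
SD over the 8 libraries of the within-library log2 difference for the 15 pairs of miR-30 precursors, with neighbours on a chromosome in orange and other pairs in purple. The neighbours mir-30a and mir-30c-2 have the smallest SD (0.088) and the neighbours mir-30d and mir-30b the largest (0.531).

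Correlations across the 8 libraries gave the same grouping, but they use the same values as the SDs. They are not separate support for it, and their p-values are for single pairs and do not test the grouping. Pearson's r of the 6 pairs in the close group was 0.965 to 0.993, with Spearman's rho of at least 0.929 (exact permutation tests, adjusted p of at most 0.0004 for r and 0.0056 for rho over the 15 pairs). The 9 other pairs had r of 0.599 to 0.910, and 14 of the 15 passed an adjusted p of 0.05 by r and 10 by rho. The smallest r that passed was 0.742, and 11.9% of all 64261 pairs of compared precursors had an r at least as high. mir-30b with mir-30d did not, with r = 0.599 and rho = 0.405 (exact permutation p = 0.117, adjusted p = 0.117 for r). Next, r was taken without 2 libraries, those farthest from the median of the pair's first member in alphabetical order. They were old 4 and young 4 for 14 pairs, and young 1 and young 4 for mir-30d with mir-30e. That was the only pair in which mir-30d came first. So reduced, r was 0.807 to 0.970 in the close group and -0.072 to 0.718 in the other pairs. In the pairs that left out old 4 and young 4, the r of mir-30b and of mir-30d with the rest thus depended largely on these libraries. Leaving out the most extreme libraries narrows the range, which by itself tends to lower r. For mir-30d with mir-30e, r was 0.760 with all libraries and 0.718 without young 1 and young 4. As a different choice of libraries was left out there, the 0.718 cannot be set beside the r of the other pairs. After median-ratio rescaling 6 pairs passed by r, which were the 6 of the close group. After quantile normalization 5 passed by r and 0 by rho. With the group means removed, r over the 15 pairs was 0.600 to 0.996. No batch is given in the labels.

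As a description, the median r over a family's pairs was 0.903 in miR-30, against 0.811 in miR-29 (4 precursors), 0.572 in miR-26 (3) and 0.769 in miR-181 (6), and 0.220 over all pairs of compared precursors. After median-ratio rescaling these medians were 0.627 in miR-30, against 0.461, 0.048, 0.652 and -0.010. The families contain copies that share mature strands, and all points share the same 8 libraries. The order of miR-30 and miR-181 thus changed with the scaling.

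The precursors outside the family whose pattern over the 8 libraries was most like the mean of the 6 members, by Pearson's r, were mir-30f (0.984, the repeat of mir-30e), mir-21a (0.971), mir-34c (0.970), mir-103-1 (0.970) and mir-103-2 (0.960). mir-21a measured 12.77, 13.21, 13.19 and 14.13 in old 1 to old 4, against 12.68, 13.65, 12.80 and 14.51 in young 1 to young 4, and mir-34c measured 13.25, 13.84, 13.82 and 14.85, against 13.80, 13.99, 13.37 and 14.97. Both had their highest values in old 4 and young 4. Setting mir-30f aside, the nearest precursor was mir-103-1 for mir-30a (r = 0.973), mir-34b for mir-30b (0.976), mir-186 for mir-30c-1 (0.986) and mir-30c-2 (0.973), mir-484 for mir-30d (0.979) and mir-34c for mir-30e (0.986). These r values were the highest of many and have no test.

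The within-group SD of the members was unremarkable for this table, from 0.52 for mir-30b, above 27.9% of the 359, to 0.70 for mir-30c-1, above 52.6%. Beside the family, 22 other precursors with a described role in myoblast differentiation were listed, of which 20 were compared. Of these, 13 had a higher and 7 a lower mean in old libraries, while 165 of all 359 had a higher one. The median log2 difference was 0.04, against -0.05 over all 359. By limma 0 passed (smallest adjusted p 0.995, with 0 at an unadjusted p under 0.05). The list holds copies, such as mir-181a-1 and mir-181a-2, and all its precursors share the same libraries, so they are not separate measurements. Among them the most abundant after mir-486 was mir-181a-2, which represses inhibitors of differentiation, at 18.07 ± 0.25 in old libraries, against 18.31 ± 0.51 in young ones (SD, n = 4 each). mir-378a, carried in an intron of Ppargc1b, measured 16.99 ± 0.34 and 17.13 ± 0.13.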

How the data were processed

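Small RNA was isolated with a mirVana kit, per the labels' protocols, from myoblasts of 4 old and 4 young mice. The submitters' processing notes name BWA and mm10; for trimming, counting and filters nothing is stated in the sources used here. Deposited were the authors' log2 values, to 2 decimals and floored at 0, for 1181 precursors, arms not separated. Times precursor length, values of up to 12 reads fell on whole multiples of a step (tolerance 0.1 of a read) in 100% of cases per library, which gives 25.1 to 39.4 M reads per library. This is how reads per kilobase behave, but the unit is not stated. limma 3.58.1 (R 4.3.3, mean-variance trend) was fitted to the 359 precursors compared, with Benjamini-Hochberg adjustment and a threshold of 0.05; intervals are 95%. It was tested on simulated data. Exact permutation tests of old against young used 70 arrangements (smallest p 0.0286). Those of level pairs used all sign flips, and those of correlations all pairings of the 8 libraries. With nothing said of separate cultures, p-values measure the spread between these libraries. Other steps used scipy 1.17.1, pandas 2.3.3, numpy 2.4.6 and matplotlib 3.10.9 under Python 3.11.15. Positions come from RefSeq and GENCODE tables.

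The members, lists, tests and rule for named precursors (members, other precursors with the seed, the 5 most alike, the nearest to each member, the leading members of lists) were chosen with earlier results of these data known. The alternatives were each library left out, the replicate number as a block, limma with array weights or with no trend, quantile, unweighted TMM and median-ratio scaling, an open filter or one at a mean of 100, and pseudocounts of 1 and 10. Leaving out both old 4 and young 4, and rescaled correlations, were added after seeing the data.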

Additional observations from a re-analysis of the deposited data

Results flagged for a closer look

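Of 22 groups of 4 libraries examined (members, their within-library differences and the family sum), 1 had a library far from the others. mir-30b measured 8.93 in young 4, against 7.94 to 8.09 in the other young libraries, a gap of 0.848 of the group's range. Chance marks about 1 in 20 groups.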

How the results depend on the processing

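The count of precursors passing between old and young libraries was 0 under every alternative run, and no member passed under any (smallest adjusted p 0.847). The members' small differences changed sign easily. TMM rescaling gave 0.026 for mir-30b. Quantile normalization gave 0.169 for mir-30b, 0.074 for mir-30c-1, 0.057 for mir-30d and 0.010 for mir-30e. Array weights gave 0.099 for mir-30a, 0.003 for mir-30c-2 and 0.053 for mir-30e. Without both old 4 and young 4, mir-30a was at 0.043 and mir-30d minus mir-30b at 0.020. Leaving out 1 library each gave -0.372 to 0.275 for mir-30a, -0.308 to 0.179 for mir-30b, -0.466 to 0.163 for mir-30c-1, -0.447 to 0.190 for mir-30c-2, -0.612 to 0.081 for mir-30d, -0.346 to 0.224 for mir-30e and -0.512 to 0.008 for mir-30d minus mir-30b. The cause of these sign changes was not tested. The 15 level pairs passed with a pseudocount of 10 and without each library. Of the 14 correlations past the threshold, 6 passed after median-ratio rescaling and 5 after quantile normalization (0 by rho), where the cause was not tested.

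The labels give no pairing by number, and not every number deviated together: deviations of same-numbered old and young libraries correlated at -0.064, 0.435, 0.662 and 0.58 for numbers 1 to 4. Old 2, old 3 and old 4 each correlated best with the young library of their own number, and old 1 with young 4 (0.095), which is a hint from the data only. With the number as a block the count was still 0. The smallest adjusted p was then 0.110, against 0.995 without it, and 39 precursors had an unadjusted p under 0.05, against 4. mir-30d was at -0.25 (adjusted p = 0.939). Under the block mir-30e minus mir-30c-1 was higher in old libraries for 4 of 4 numbers, by 0.21, 0.06, 0.01 and 0.13 (exact sign-flip p = 0.125, the smallest that 4 pairs can give). Each member had at least 523 recovered reads in each library, so the spread between libraries limits the comparison more than depth.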
